A study of Mus musculus with 6 samples.

Results

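Cadherins are calcium-dependent adhesion proteins that join neighbouring cells. Their extracellular repeats pair with a cadherin on the next cell, and the intracellular tail of the classical members binds catenins, which link the junction to actin. In many epithelial–mesenchymal transitions (EMT) the epithelial form, E-cadherin, gives way to the neural form, N-cadherin, a change known as the cadherin switch. The 10 cadherin genes described here are the type I cadherins Cdh1, Cdh2 and Cdh3, the type II cadherins Cdh5, Cdh6, Cdh10 and Cdh11, the lipid-anchored Cdh13, and Cdh16 and Cdh17, which belong to a separate branch with a short intracellular tail. They were chosen by name, each is represented by the brightest probe set that carries that symbol alone, and they are 10 of the 19938 genes with such a probe set. Each of the 10 had exactly 1 such probe set. A further 3 probe sets name Cdh11 together with other genes and were not used.

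The data are 3 Affymetrix Mouse Gene 1.0 ST arrays of NME cells and 3 of AGR cells. NME cells are normal murine mammary gland cells (NMuMG) that overexpress EGFR, and AGR cells, derived from them, share that background. AGR cells go back to 1 colony that grew in 3D culture under 1 µM of the EGFR inhibitor AG1478 and was isolated and expanded. AGR thus stands for a single isolate and not for resistance in general. By the paper's methods, its drug-resistant lines were kept without drug, in DMEM with serum and insulin, once established. The medium of NME cells is not given there. Values are log2 of the deposited array intensity, a relative scale that does not count molecules, and with bulk RNA less signal from a gene cannot be told apart from fewer cells that express it. The test was limma's moderated linear model, with Benjamini-Hochberg adjustment over all 19938 genes, and "called" means an adjusted p under 0.05. A differentially expressed gene (DEG) also has a fold change (FC) above 2. No source used here says that the 3 arrays of a line were separate cultures, and if they were not, the p-values reflect technical spread alone.

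Median intensities of the 6 arrays lay between 190.4 and 200.8, and log2 intensities correlated at 0.995 to 0.997 across probe sets within a line and at 0.986 to 0.988 between the lines. In 36 genes AGR replicate 2 stood over 2-fold away from its group mates, against at most 7 genes for any other array, and none of the 36 is a cadherin described here. Of 12 epithelial markers, Krt8 and Krt18, keratins of simple epithelium, were bright in both lines, with mean log2 intensities of 14.23 and 13.63 in NME and 14.13 and 13.58 in AGR. Epcam, also an epithelial surface marker, was dim, with means of 6.58 and 6.51. No detection calls came with the arrays, so 1194 olfactory and vomeronasal receptor genes, which mammary cells are not known to use, served as a guide to dim signal. The 95th percentile of their mean log2 intensity was 7.23 in NME and 7.20 in AGR, and a gene at or under it is said to lie in the dim range, which is no proof of absence.

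Of the 10 cadherin genes, 7 were called, against 24.2% of all genes tested. Cdh2, Cdh10 and Cdh13 rose (3 genes, against 12.6% of all genes called higher), and Cdh1, Cdh6, Cdh16 and Cdh17 fell (4 genes, against 11.6% called lower). Cdh3, Cdh5 and Cdh11 were not called. Cdh2 and Cdh16 were DEGs, 1 in each direction, against 3.00% of all genes that were DEGs and 1.50% in each direction. For the 7 called genes the ranges of the 3 AGR and 3 NME arrays did not overlap, which was the case for 36.4% of all genes, and for the other 3 they overlapped. The median log2 FC of the 10 genes was -0.04, beside -0.02 for all genes. Because the genes were picked with earlier results of these arrays known, the counts describe them and give no independent evidence. Among 18 other cadherin genes, from Cdh4 to Cdhr5, 2 were called, and over all 28 the share was 32.1%.

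**Figure D1:**
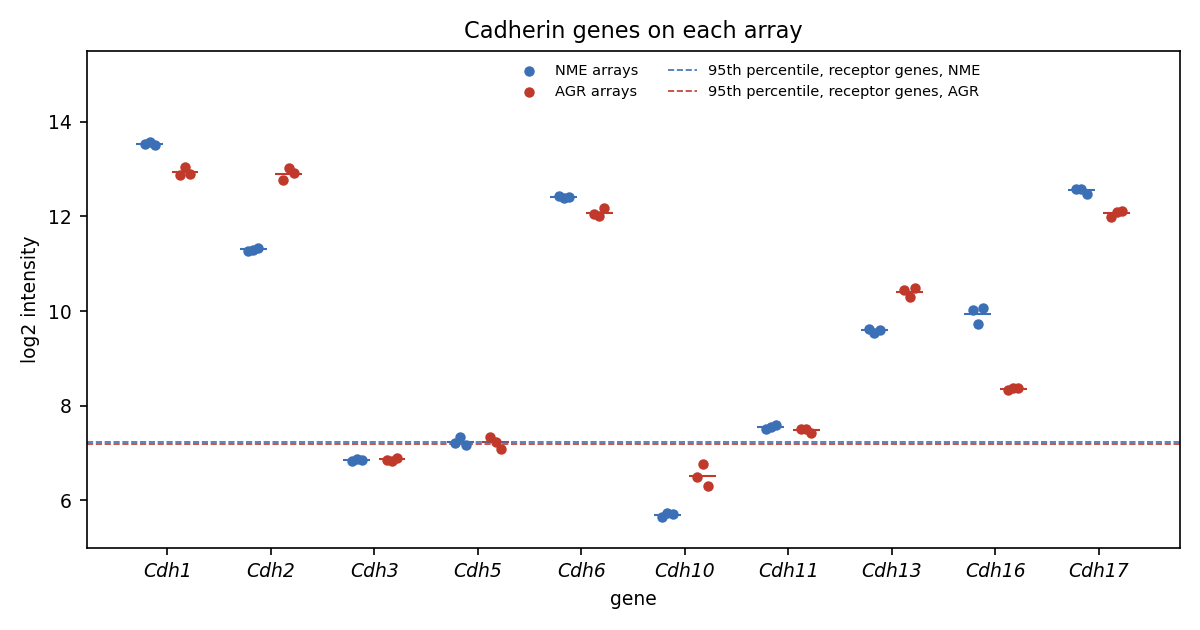
Log2 intensity (y axis) of each cadherin gene (x axis) on each of the 3 NME arrays (blue points) and 3 AGR arrays (red points), with the group mean as a short line; the dashed lines, at 7.23 and 7.20, mark the 95th percentile of the receptor genes. Cdh2 lies higher and Cdh16 lower on every AGR array, and Cdh3 and Cdh10 lie under the dashed lines in both lines.

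Cdh1 encodes E-cadherin, the main adhesion protein of the epithelial adherens junction. Its log2 intensity was 13.53, 13.57 and 13.51 on the NME arrays and 12.87, 13.04 and 12.90 on the AGR arrays. Every AGR array lay below every NME array, with a gap of 0.47 between the nearest arrays. The mean was 13.54 ± 0.03 (SD, n = 3) in NME and 12.93 ± 0.09 (SD, n = 3) in AGR, and Cdh1 fell with a log2 FC of -0.60 (95% interval -0.74 to -0.47, SE 0.06, adjusted p = 4.7e-04 from limma). NME cells thus had 1.52 times the signal of AGR cells, and in AGR cells Cdh1 still lay 5.73 above the dim range on the log2 scale. The fall ranked 697 of 19938 genes.

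Cdh2 encodes N-cadherin, the form typical of mesenchymal and neural cells, which is known to act together with FGF receptors. The NME arrays read 11.27, 11.29 and 11.34 and the AGR arrays 12.78, 13.02 and 12.92. All AGR arrays were above all NME arrays, with a gap of 1.43, and the NME mean was itself 4.07 above the dim range on the log2 scale. The mean was 11.30 ± 0.04 (SD, n = 3) in NME and 12.91 ± 0.12 (SD, n = 3) in AGR, and Cdh2 rose with a log2 FC of 1.60 (95% interval 1.44 to 1.76, SE 0.07, adjusted p = 1.5e-05 from limma) or a FC of 3.04. This was the largest rise of the 10 genes and ranked 101 of all genes.

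Cdh1 and Cdh2 can be read together on each array. Relative to the NME mean, the log2 ratio of Cdh2 to Cdh1 was -0.03, -0.04 and 0.07 on the NME arrays and 2.14, 2.21 and 2.26 on the AGR arrays. The groups lay far apart, and AGR replicate 2, the AGR array with the highest Cdh2, also had the highest Cdh1. The mean shift in AGR cells was 2.20 ± 0.06 (SD, n = 3) on the log2 scale, so the ratio was 4.61 times that in NME cells. The rise of Cdh2 made up 1.60 of it and the fall of Cdh1 the rest. Levels of different probe sets cannot be set against each other, so the shift does not say which of the cadherins was the more abundant in either line.

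**Figure D2:**
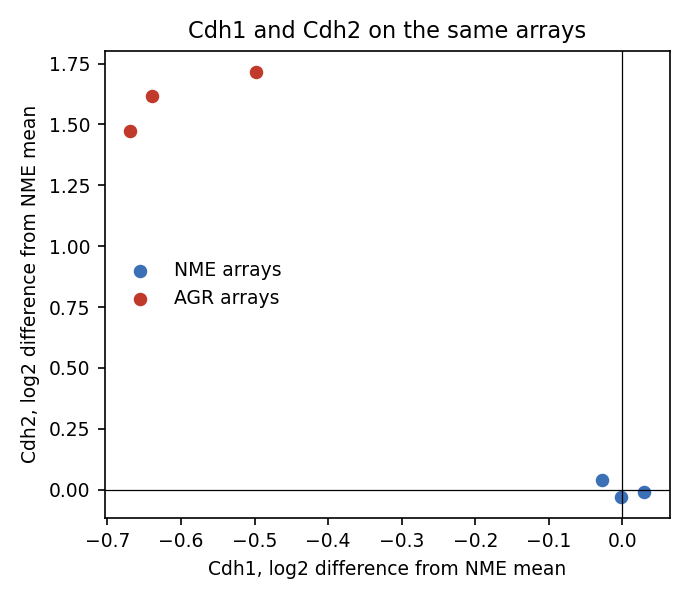
Difference of each array from the NME mean in log2 intensity for Cdh1 (x axis) and Cdh2 (y axis), with the 3 NME arrays in blue and the 3 AGR arrays in red. The AGR arrays lie between -0.67 and -0.50 for Cdh1 and between 1.47 and 1.72 for Cdh2, away from the NME arrays near 0 on both axes.

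Cdh3, the third type I member, encodes P-cadherin, known from the myoepithelial layer of the mammary gland. Its log2 intensity was 6.83, 6.88 and 6.85 in NME and 6.86, 6.83 and 6.91 in AGR. The arrays overlapped, both means lay in the dim range, and the log2 FC was 0.01 (95% interval -0.09 to 0.11, adjusted p = 0.893 from limma). In the RefSeq gene order Cdh3 is the next gene to Cdh1 with a probe set of its own, and of this neighbouring pair Cdh1 alone was called.

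Of the type II cadherins, Cdh6 (K-cadherin, known from embryonic kidney) was bright in both lines and fell, Cdh10 (known from the nervous system) was dim and rose, and Cdh5 and Cdh11 were not called. Cdh6 read 12.42, 12.39 and 12.40 in NME and 12.05, 12.01 and 12.17 in AGR. The AGR arrays were all lower, by a modest margin, with a log2 FC of -0.33 (95% interval -0.45 to -0.20, adjusted p = 0.00465 from limma). Cdh10 read 5.66, 5.74 and 5.71 in NME and 6.49, 6.77 and 6.31 in AGR. Its ranges did not overlap, but the AGR arrays were widely spread (SD 0.23, n = 3) and both means lay in the dim range, at -1.53 in NME and -0.68 in AGR relative to its upper end. The log2 FC of Cdh10 was 0.82 (95% interval 0.55 to 1.09, adjusted p = 0.00221 from limma), and for comparison 0.838% of the receptor genes that define the dim range were called in either direction.

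Cdh6 and Cdh10 are the members for which an upstream sequence was at hand, and they are shown because these type II genes, with Cdh9 as the measured gene between them, moved in opposite directions. The stretches are the 250 bases upstream of the RefSeq start in GRCm38.p6, at chr15:13173676-13173925 on the minus strand for Cdh6 and at chr15:18820079-18820328 on the plus strand for Cdh10, written 5′ to 3′. Capitals mark CANNTG, the general E-box read by basic helix-loop-helix factors, which is the same on both strands.
Cdh6: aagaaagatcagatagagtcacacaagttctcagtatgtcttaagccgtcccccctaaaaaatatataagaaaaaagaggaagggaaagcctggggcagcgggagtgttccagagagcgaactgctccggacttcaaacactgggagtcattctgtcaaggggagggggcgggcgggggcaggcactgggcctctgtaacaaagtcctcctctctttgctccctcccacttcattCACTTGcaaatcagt
Cdh10: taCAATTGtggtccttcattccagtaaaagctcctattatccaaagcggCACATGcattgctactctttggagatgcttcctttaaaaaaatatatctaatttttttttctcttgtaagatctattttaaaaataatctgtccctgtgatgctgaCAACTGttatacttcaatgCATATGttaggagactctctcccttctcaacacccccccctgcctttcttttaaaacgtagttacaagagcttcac
CANNTG was found once in the Cdh6 window and at 4 places in the Cdh10 window, and 66.2% of 32851 windows of this length hold at least 1. The narrower form CAGGTG, or CACCTG when read from the other strand, which the Snail and Zeb repressors are known to read, was in neither window and in 17.2% of all windows. GC content was 51.2% for Cdh6 and 36.8% for Cdh10, beside a median of 52.4%. Cdh9 itself had mean log2 intensities of 5.12 in NME and 5.11 in AGR, in the dim range, and was not called (adjusted p = 0.914 from limma).

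Cdh5 encodes VE-cadherin of endothelial junctions, and Cdh11 encodes OB-cadherin, known from bone-forming and mesenchymal cells. Cdh5 read 7.21, 7.33 and 7.18 in NME and 7.35, 7.23 and 7.10 in AGR, within 0.03 of the upper end of the dim range by the means, with a log2 FC of -0.01 (95% interval -0.20 to 0.17, adjusted p = 0.934 from limma). Its sign changed under other scalings, so no direction can be given. Of 12 endothelial markers 0 were called by limma or by the methods' t-test after adjustment, and 1, Egfl7, had an unadjusted limma p under 0.05 (log2 FC -0.23). Over all genes, limma called 24.2%. Of the 12, 6, among them Pecam1 and Kdr, lay in the dim range in both lines. The summed intensity of all 12 was 2073 to 2172 in NME and 1945 to 2069 in AGR.

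Cdh11 read 7.50, 7.55 and 7.60 in NME and 7.50, 7.50 and 7.43 in AGR. NME replicate 1 and AGR replicates 1 and 2 had exactly the same value, which occurs in these files for 6236 genes on at least 2 arrays. The log2 FC was -0.07 (95% interval -0.18 to 0.04, adjusted p = 0.359 from limma). That interval belongs to this fit alone. Under other processing the log2 FC of Cdh11 ranged from -0.096 (SE 0.050, without NME replicate 1) to -0.045 (SE 0.050, with median centring). Its means lay 0.32 above the dim range in NME and 0.28 above it in AGR. Of 11 fibroblast markers, Pdgfra was called higher with a log2 FC of 0.39 and 10 were not called, among them Col1a1 (log2 FC 0.01) and Col3a1 (-0.01), and Dcn, Lum and Postn lay in the dim range. The share of fibroblast markers called was 9.09%, against 24.2% of all genes. The summed intensity of these markers was 2037 to 2234 in NME and 2079 to 2202 in AGR, ranges that overlap.

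Cdh13 encodes T-cadherin, which is held in the membrane by a lipid anchor, has no intracellular tail and binds adiponectin. It read 9.62, 9.55 and 9.60 in NME and 10.44, 10.30 and 10.48 in AGR. The groups were separated by 0.68, with both lines above the dim range. The log2 FC was 0.82 (95% interval 0.68 to 0.96, SE 0.06, adjusted p = 1.5e-04 from limma), a FC of 1.76. Its log2 FC was the same as that of Cdh10 to 2 decimals, with a narrower interval and a signal above the dim range.

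Cdh16 encodes the kidney-specific KSP-cadherin and Cdh17 the liver–intestine LI-cadherin, and both fell. Cdh16 read 10.03, 9.73 and 10.06 in NME and 8.33, 8.38 and 8.38 in AGR. The gap between the groups was 1.35, with NME replicate 2 the lowest of its group, and AGR cells still lay 1.16 above the dim range. The mean was 9.94 ± 0.18 (SD, n = 3) in NME and 8.36 ± 0.03 (SD, n = 3) in AGR, and Cdh16 fell with a log2 FC of -1.58 (95% interval -1.79 to -1.36, adjusted p = 5.4e-05 from limma), so that NME cells had 2.99 times the signal of AGR cells. In absolute size this was nearly the change of Cdh2 in the other direction, and it ranked 141 of all genes that fell.

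Cdh17 was bright in NME cells, at 12.59, 12.59 and 12.47, and read 11.99, 12.09 and 12.12 in AGR. It fell on all AGR arrays but stayed 4.86 above the dim range, with a log2 FC of -0.48 (95% interval -0.62 to -0.35, adjusted p = 0.00114 from limma). Of 14 markers of kidney, liver and gut epithelium, 8 were called lower and 0 higher by limma (57.1% called). Of all genes 11.6% were called lower and 24.2% in either direction. At an unadjusted limma p under 0.05, 1 marker was higher, against 0 by the methods' t-test after adjustment, which called 7 lower. This list, like the others, was chosen with earlier results of these data known. The summed intensity of the 14 markers was 26580 to 29970 in NME and 4926 to 5324 in AGR. Alb, Lgals4 and Ttr had the largest falls of these, with log2 FCs of -6.36, -5.60 and -5.12, and Alb and Lgals4 ended in the dim range. These 3 genes carried most of the drop in the summed intensity, at 19890 to 22600 in NME and 392.4 to 452 in AGR. The other 11 markers summed to 6691 to 7366 in NME and 4505 to 4872 in AGR. Levels of different probe sets cannot be set against each other, so these sums do not give each gene's share of the transcripts. Umod and Slc12a1, defining markers of the kidney tubule, lay in the dim range in both lines, where Umod was called lower (log2 FC -0.22). Pax2 and Pax8, also expressed in the kidney tubule, were not called (log2 FCs of -0.06 and 0.11). Both lay above the dim range, Pax2 with means of 11.07 in NME and 11.01 in AGR and Pax8 with 8.13 and 8.25. Any part of these epithelial programs in the fall of Cdh16 and Cdh17 was not tested.

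**Figure D3:**
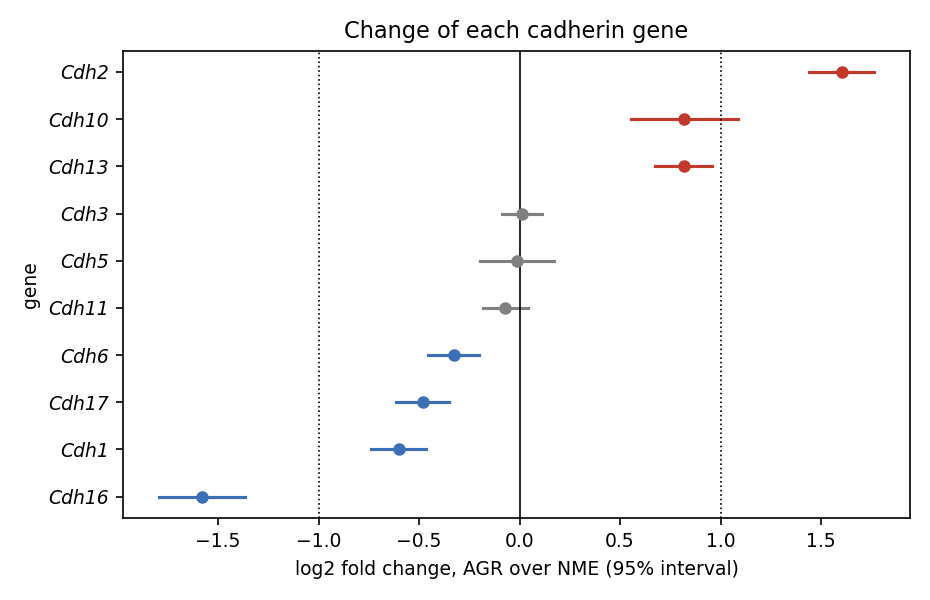
Log2 fold change of AGR over NME cells (x axis, points with 95% intervals from limma) for each cadherin gene (y axis), red where called higher, blue where called lower and gray where not called; dotted lines mark a FC of 2. The intervals of Cdh2 and Cdh16 lie wholly past the dotted lines, at 1.44 to 1.76 and -1.79 to -1.36.

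The order of the changes was Cdh2, Cdh10, Cdh13, Cdh3, Cdh5, Cdh11, Cdh6, Cdh17, Cdh1 and Cdh16, from the largest rise to the largest fall. The intervals of Cdh10 and Cdh13 overlap, as do those of Cdh3, Cdh5 and Cdh11, and those of Cdh6, Cdh17 and Cdh1 overlap from neighbour to neighbour. Cdh2 and Cdh16 lie apart from the gene next to them. In the fits that each left out 1 of the 6 arrays, the 7 called genes were called every time. Their highest adjusted p in those fits was 0.0263, for Cdh6 without NME replicate 1.

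Further cadherins were then read from the arrays. Of the 18 other cadherins, Cdhr2 and Cdhr5, protocadherin-like proteins of the gut and kidney brush border, fell, with log2 FCs of -2.24 and -0.39. By limma 0 rose and 16 were not called. At an unadjusted limma p under 0.05, 1 was higher and 2 were lower. By the methods' t-test after adjustment, 0 were higher and 1 was lower. Cdhr2 went from 8.79 ± 0.16 (SD, n = 3) to 6.55 ± 0.23 (SD, n = 3), into the dim range. Cdhr5 lay in the dim range in both lines and was called in 1 of the 6 fits that left out an array (adjusted p up to 0.0968, without NME replicate 1). In all 10 of the 18 lay in the dim range in both lines. Of 23 atypical cadherins and protocadherins, Pcdh7 and Pcdh18 rose, 0 fell and 21 were not called by limma. The share called was 8.7%, against 24.2% of all genes. At an unadjusted limma p under 0.05, 6 were higher and 1 was lower. By the methods' t-test after adjustment, 3 were higher and 0 lower. Pcdh7, a protocadherin, had means of 8.37 ± 0.04 (SD, n = 3) in NME and 10.79 ± 0.08 (SD, n = 3) in AGR, with a log2 FC of 2.41 (adjusted p = 1.5e-06 from limma), larger than the rise of any of the 10 cadherins above. Pcdh18 had a log2 FC of 1.63, from 7.04 in the dim range to 8.67. Fat1, a giant cadherin bright in both lines, had a log2 FC of 0.24 that was not called (adjusted p = 0.0591 from limma).

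Catenins and the proteins that tie them to actin moved in both directions. Of 21 measured genes 5 rose, 5 fell and 11 were not called (47.6% called, against 24.2% of all genes), and the median log2 FC was -0.04. Ctnnb1, which encodes β-catenin, fell slightly from 13.63 ± 0.01 (SD, n = 3) to 13.41 ± 0.07 (SD, n = 3), and Jup, which encodes plakoglobin, fell with a log2 FC of -0.46. Ctnna1, which encodes the α-catenin that binds actin, rose with a log2 FC of 0.36, and Ctnnd1, for the p120 catenin, was not called (log2 FC -0.12). The largest rises were those of Vcl, for vinculin, with a log2 FC of 0.94 (adjusted p = 6.9e-04 from limma), Pdlim1, an actin-associated adaptor, with 0.86 and Arvcf, a p120 relative, with 0.54. Afdn, which links nectins to actin, rose by 0.18. Shroom3, for apical constriction, Lima1, an actin linker, and Vezt, a junction membrane protein, fell with log2 FCs of -0.52, -0.62 and -0.27. Several of these calls were lost when 1 array was left out. Ctnnb1 was called in 3 of the 6 fits that left out an array (adjusted p up to 0.0686, without NME replicate 3), Jup in 4 (up to 0.0809, without NME replicate 3), Lima1 in 3 (up to 0.0774, without NME replicate 3), Vezt in 1 (up to 0.145, without NME replicate 3) and Afdn in 2 (up to 0.0734, without NME replicate 1).

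Nectins are immunoglobulin-like adhesion proteins that sit beside cadherins in the adherens junction. Of 8 measured genes for nectins and nectin-like molecules, 3 rose, 0 fell and 5 were not called by limma. The share called was 37.5%, against 24.2% of all genes, of which 12.6% were called higher. At an unadjusted limma p under 0.05, 3 were higher and 1 was lower. By the methods' t-test after adjustment, 2 were higher and 0 lower. Nectin1 had means of 7.84 ± 0.22 (SD, n = 3) in NME and 9.30 ± 0.07 (SD, n = 3) in AGR and rose with a log2 FC of 1.46, and Nectin2 rose with 0.72. Nectin3 had a log2 FC of 0.29 and was called in 1 of the 6 fits that left out an array (adjusted p up to 0.149, without AGR replicate 3).

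Of 23 genes for the processing, turnover and trafficking of cadherins, 4 rose, 5 fell and 14 were not called. The share called was 39.1%, against 24.2% of all genes. The largest rise and the largest fall were both in receptor phosphatases that act at cell contacts. Ptprm rose with a log2 FC of 1.20 and Ptpru, with means of 10.08 ± 0.03 (SD, n = 3) in NME and 7.97 ± 0.05 (SD, n = 3) in AGR, fell with a log2 FC of -2.11. The proprotein convertase gene Pcsk6 fell with -1.63. Adam15 and Ptpn14 rose with 0.49 and 0.53, whereas Adam10, the main sheddase of E-cadherin, was not called (log2 FC -0.09, adjusted p = 0.483 from limma). Furin, a convertase that matures cadherin precursors, had 0.16, and Fer, Arf6 and Ptprf had -0.32, -0.32 and -0.18. Of these, Furin, Fer and Arf6 were each called in 1 of the 6 fits that left out an array (adjusted p up to 0.0895 without NME replicate 1, 0.0927 without AGR replicate 3 and 0.105 without AGR replicate 3), and Ptprf in 4 (up to 0.0686, without NME replicate 3).

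**Figure D4:**
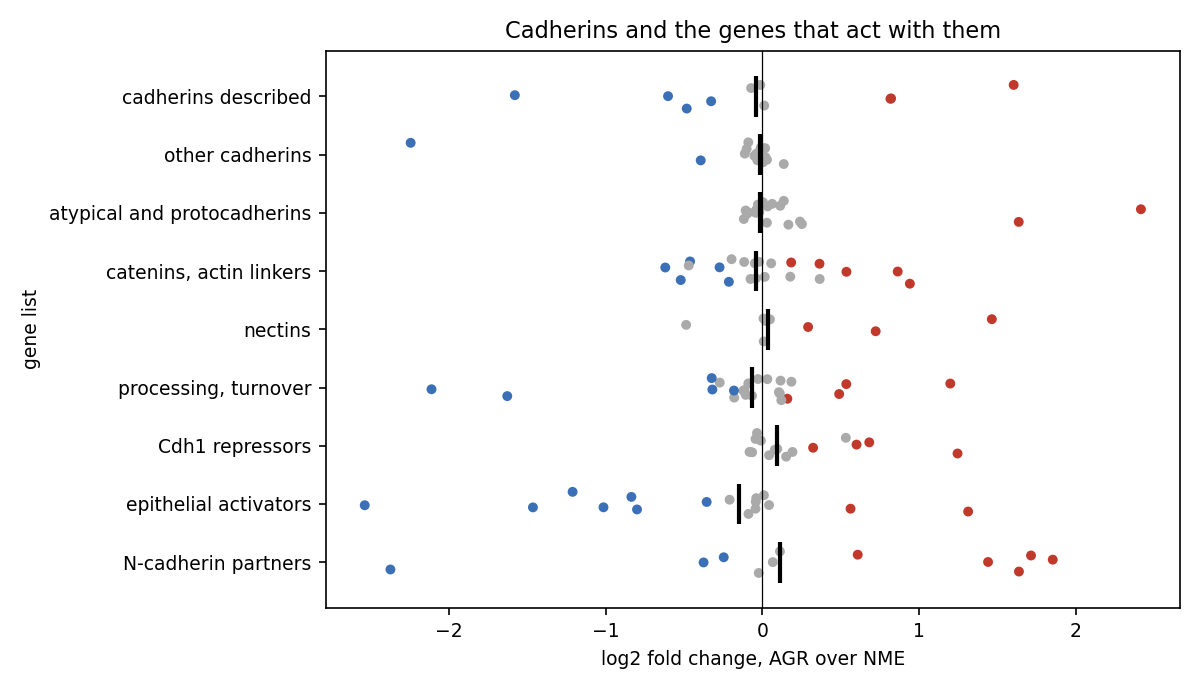
Each point is a measured gene at its log2 fold change between the lines (x axis, AGR over NME), with 9 gene groups on the y axis, red where called higher, blue where called lower, gray where not called, with the group median as a black line. The medians stay between -0.15 and 0.11 in all 9 groups, while single genes such as Pcdh7 (2.41) and Ehf (-2.54) lie far out.

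Among factors known to repress Cdh1, 4 of 15 rose, 0 fell and 11 were not called by limma, with a median log2 FC of 0.09. The share called was 26.7%, close to the 24.2% of all genes called, and the 4 that rose compare with 12.6% of all genes called higher. The count lower was also 0 at an unadjusted p under 0.05 and by the methods' t-test. The zinc finger repressors Zeb2, Snai1 and Zeb1 and the co-repressor Ctbp2 rose, with log2 FCs of 1.24, 0.68, 0.60 and 0.32. Snai2 had 0.53 and was not called, with an AGR spread of 0.61 (SD, n = 3). Of 16 factors known to drive epithelial genes or the cadherins of kidney, liver and gut, 7 fell, 2 rose and 7 were not called. The share called was 56.2%, against 24.2% of all genes, of which 11.6% were called lower. The median log2 FC of these factors was -0.15. Ehf and Elf3, epithelial ETS factors, fell with log2 FCs of -2.54 and -1.46, and the hepatic and intestinal factor Hnf4a fell with -1.21 but stayed bright, at 11.96 in AGR. Cdx2, a known activator of Cdh17, fell with -0.36, from 0.72 above the dim range in NME to 0.39 above it in AGR. Cdx1, in the same list and brighter (means of 8.75 and 8.71), was not called (log2 FC -0.04). Any link of these factors to the fall of Cdh17 was not tested. Grhl2 and Ovol1, known guardians of Cdh1 expression, lay in the dim range in both lines. Foxa1 and Gata3, luminal factors, rose with 1.31 and 0.56. The NME arrays held exactly equal values for Zeb1 and for Gata3, which lowers their measured spread.

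Of 11 genes described as acting with N-cadherin or in the same signaling, 5 rose, 3 fell and 3 were not called. The share called was 72.7%, against 24.2% of all genes, of which 12.6% were called higher and 11.6% lower. The list was chosen with earlier results of these arrays known, so its counts give no independent evidence. Gja1, for the gap junction protein connexin 43, rose with a log2 FC of 1.85 (adjusted p = 1.1e-04 from limma), Ncam1 with 1.71, Itga5 with 1.64, Fn1 with 1.44 and Fgfr1 with 0.61. Robo1, a guidance receptor, fell with -2.37, Agrn with -0.38 and Lrp5 with -0.25. Lrp5 was called in 0 of the 6 fits that left out an array (adjusted p up to 0.157, without NME replicate 3). Of the 12 epithelial markers, the junction genes Ocln and Dsp and the keratin gene Krt19 fell, with log2 FCs of -1.96, -1.13 and -1.04. The other 9 were not called, and the share called, 25%, was close to the 24.2% of all genes. Of 9 immune cell markers 22.2% were called, close to the 24.2% of all genes. Cd68, also a lysosomal protein of other cells, rose with 0.96. Csf1r had 0.28 and was called in 1 of the 6 fits that left out an array (limma adjusted p up to 0.122, without AGR replicate 3). Ptprc, the pan-leukocyte marker, lay in the dim range in both lines.

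The genes whose profile over the 6 arrays came closest to a cadherin were found by the root mean square difference of log2 intensities, each gene centred on its mean, among 17504 named genes. For Cdh1 these were Tspan31, Akr7a5 and Stxbp2, with differences of 0.02, 0.02 and 0.03. For Cdh2 they were Itga5, Cttnbp2nl and Dcbld2, with 0.05, 0.06 and 0.06, and for Cdh16 Cbln3, Fos and Fam210b, with 0.06, 0.06 and 0.07. With 6 arrays in 2 groups such likeness mostly reflects a similar FC.

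The genes next to each cadherin in the RefSeq order that had a probe set of their own were also examined. Next to Cdh1 on its other side, Tango6 had a log2 FC of 0.20, opposite in sign to Cdh1 (called in 1 of the 6 fits that left out an array, adjusted p up to 0.13, without AGR replicate 3). Next to Cdh2, Chst9 and 4921533I20Rik were not called (log2 FCs of 0.05 and -0.08). Next to Cdh16, Pdp2 and Rrad had log2 FCs of 0.22 and 0.16, not called, where Cdh16 fell. Next to Cdh13, Mphosph6 and Hsbp1 were not called (0.06 and -0.13). Next to Cdh17, Pdp1 rose with 0.39 and Gem was not called (-0.06). Next to Cdh6, Drosha had 0.23 (called in 1 of the 6 fits that left out an array, adjusted p up to 0.117, without NME replicate 2). The neighbours Zfp90 of Cdh3, Bean1 of Cdh5, A330008L17Rik of Cdh11 and Acot10 of Cdh10 were not called. None of the measured neighbours of the 7 called cadherins was called in the same direction as the cadherin. Of all genes 12.6% were called higher and 11.6% lower, so a lack of such calls among so few neighbours says little. Whether wider stretches of these chromosomes changed was not tested.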

How the data were processed

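The platform was the Affymetrix Mouse Gene 1.0 ST array, with total RNA of each line on 3 arrays. The deposited values are linear intensities, already processed by the authors. The submitters' notes name MAS5 without settings, a method that relies on mismatch probes which this array lacks, so the normalization is unknown. The file holds 35557 probe sets, of which 21789 carry 1 symbol, 1621 several and 12147 none. Exactly equal values on all 3 arrays of a line occur for 357 genes in NME and 294 in AGR and lower their measured spread. The genome build of the probe annotation is not given in the sources used here. Symbols were matched by gene ID to RefSeq (GRCm38.p6), for 21698 probe sets.

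From these intensities log2 was taken with no offset. The brightest probe set stood for each of 19938 genes (999 had several), and limma 3.58.1 in R 4.3.3 (lmFit, eBayes) compared the lines. The cadherins and gene lists were chosen with earlier results of these data known. Genes were named by a rule: all 10 cadherins, up to 3 called genes with the largest rise and fall of each list (all where 5 or fewer moved 1 way), the 3 nearest profiles of Cdh1, Cdh2 and Cdh16, and chromosomal neighbours. Other genes (among them Krt8, Krt18, Epcam, Ctnnd1, Adam10, Snai2, Cdx2, Grhl2, Ovol1, Fat1, Pax2, Pax8, Col1a1, Col3a1, Dcn, Lum, Postn, Pecam1, Kdr, Egfl7, Umod, Slc12a1 and Ptprc) were named after their values were seen. Cdx1 was also named after its values were seen. Simulated data had 19938 genes, independent normal noise and far fewer changed genes than were called here. In them limma found 49 of the 67 genes given a 1.5-fold change, 66 of the 67 given 2.5-fold and all 66 given 4-fold. It called 10 of 19738 unchanged genes, and these rates need not hold for the real arrays. Alternatives were other normalizations, a filter on dim genes, other probe set rules, other variance settings, the methods' t-test, an offset, a replicate block and leaving out each array. The number of arrays limits the precision.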

Additional observations from a re-analysis of the deposited data

How the results depend on the processing

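The 7 called cadherins stayed called, with the same sign, under every alternative that tested them. Cdh10, a dim gene, was not tested when genes under the median of all probe sets were left out. Each cadherin had 1 probe set, so the other probe set rules could not change its log2 FC and do not test it. Over the alternatives the log2 FC lay between -0.65 and -0.55 for Cdh1, between 1.55 and 1.67 for Cdh2, between 0.67 and 0.93 for Cdh10 (lowest with an offset of 16) and between -1.68 and -1.52 for Cdh16. Cdh3, Cdh5 and Cdh11 were called under none of them. Signs turned only for genes that were not called. With quantile normalization and median centring, Cdh5 had 0.016 and 0.013, Bean1 0.020 and 0.024 and Cdh9 0.010 and 0.018. The fits without 1 array ranged from -0.076 to 0.051 for Cdh5, from -0.0079 to 0.028 for Cdh3, from -0.0028 to 0.080 for Chst9, from -0.059 to 0.069 for Bean1, from -0.14 to 0.0064 for A330008L17Rik and from -0.052 to 0.12 for Mphosph6. Whether the replicate numbers pair the arrays is not known. Deviations of same-numbered arrays correlated at -0.13, 0.33 and 0.26, and the highest correlation was between different numbers (0.36). Deviations from a mean of 3 arrays constrain each other, so these correlations cannot decide it. With the replicate number as a block, Cdh2 had a log2 FC of 1.60 (adjusted p = 4.6e-05 from limma) and Cdh1 -0.60 (adjusted p = 8.8e-04 from limma), 5040 genes were called in place of 4819, and 4467 were called in both. Counts over the gene lists went from 28 higher and 33 lower to 24 to 31 higher and 23 to 34 lower when an array was left out. Of the 75 other named genes, 16 lost the call at least once. The 75 include neighbours, such as Chst9 and Bean1, that were not called at the outset and had no call to lose. By the methods' t-test after Benjamini-Hochberg adjustment, 26 list genes were higher and 25 lower, with 2 in place of 5 catenins and actin linkers and 3 in place of 5 processing genes lower. Whether dim genes were expressed cannot be read from these arrays.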
